A study of Danio rerio with 20 samples.

Results

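The comparison described here is that of zebrafish embryos exposed to 10 mg/L HFPO-DA, the highest exposure in the series, with control embryos. HFPO-DA, also called GenX, is a short-chain perfluoroalkyl ether acid made as a replacement for PFOA. The comparison takes in 7 of the 19 pools analysed, chosen by their labels and not by any measured value: 4 pools at 10 mg/L (a, b, c and d) and 3 control pools (a, b and c). Embryos of the AB strain were kept singly in wells of HFPO-DA solution brought to neutral pH, or in embryo water alone for the controls, from the sphere stage to 72 hpf, and part of the solution was replaced every day. RNA came from 8 to 10 whole embryos per pool, and the remaining 12 pools (0.5, 1 and 2 mg/L, 4 pools each) are used only where they bear on a result. Of the 20 pools of the study, control pool d was taken out by its authors as an outlier and is not analysed here. All groups share the strain, the age and the embryo water, and a pool is the replicate, so that p-values measure the spread between these pools.

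Each library counted the polyadenylated ends of transcripts at low depth, with 1 count per molecular identifier. The deposited TMM-normalized values list 9368 genes, of which 6933 had a mean over the 19 pools, computed here, above the CPM minimum that the study states, and were tested. The table also lists genes below that minimum, so that fewer genes were tested here than the study analysed. A further line was drawn at a mean of 20 reads per pool over the 7 pools: 1764 genes reached it, are called well covered here and held 88.2% of the reads. Control pools held 274326 to 395594 reads on genes and 10 mg/L pools a to c held 275250 to 321184, whereas 10 mg/L pool d held 104350, the fewest of all 19 pools. At 0.5, 1 and 2 mg/L the pools lettered d were instead the deepest, with 443076, 581494 and 579196 reads, against 137539 to 247330 in pools a to c. There, 79 genes (1.14% of those tested) differed between the pools lettered d and those lettered a to c (limma with exposure as a term, adjusted p under 0.1), against 0, 3 and 1 genes for letters a, b and c. Letter and depth cannot be told apart in that comparison. Of the 79 genes, 37 had the same sign at 10 mg/L against control, and 35 without pool d. No control pool d was analysed, so that a gene's log2 difference or a list's median at 10 mg/L is also given without pool d where leaving it out moved the value by over 1.5 times or changed its sign. Defining genes of the tissues of a 72 hpf embryo were looked for in the 7 pools, and 36 of 45 were listed, 26 of them with reads in every pool. Photoreceptor, skeletal muscle, epidermis, liver and pigment cell markers had reads in all 7 pools. Of the 3 neuronal markers, elavl3 was not listed, snap25a had 0 to 7 reads per pool and only gap43 had reads in every pool. The glial markers gfap, mbpa and plp1b were not listed, and the exocrine pancreas markers had 0 reads in at least 1 pool each.

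At 72 hpf, a zebrafish embryo has hatched or is hatching, its trunk muscle contracts, its heart pumps blood with embryonic globins, and its retina is beginning to respond to light. Cone cells carry most of the early photoreceptor transcripts, with an opsin and a phototransduction cascade of transducin, the phosphodiesterase PDE6 and a cyclic nucleotide gated channel. Perfluoroalkyl acids are best known in mammals as activators of PPAR alpha, a nuclear receptor for fatty acids that turns on genes of lipid transport and fatty acid oxidation in liver. In RNA from whole embryos, fewer cells of a type and less RNA per cell cannot be told apart.

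A single gene passed the test at 10 mg/L: hsp90aa1.2, an HSP90 alpha gene, which fell. This is 0.0144% of the genes tested (limma, adjusted p under 0.1), and edgeR and DESeq2 on the recovered reads also called only this gene. Every other gene had an adjusted p of at least 0.967 in limma, 0.883 in edgeR and 1.0 in DESeq2, so that all differences given below for other genes are values that did not pass the test. Of the 6933 genes, 128 (1.85%) were higher and 164 (2.37%) were lower with an unadjusted p under 0.05, where about 347 would be if no gene differed. Log2 differences (10 mg/L minus control, on log2 of the value plus 0.5) were above 0 in 45.3% of the genes tested, and their median was -0.04 (-0.02 without pool d). Among the 1764 well-covered genes, all 4 exposed pools lay above all control pools in 32 (1.81%) and below them in 59 (3.34%). With so few pools, some genes separate in this way by chance. That share was not computed, and a lack of overlap alone does not mark a gene as changed. Of the well-covered genes, 43.0% had a log2 difference above 0, and 2.1% were higher and 3.12% lower with an unadjusted p under 0.05. The tissues and functions below are lists of genes by symbol, and the lists are read beside these shares over all genes. The lists were chosen with earlier results of these data known. A share unlike that of all genes is therefore a description and not independent support. Members of a list were measured in the same 7 pools and are not replicates of the exposure.

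**Figure D1:**
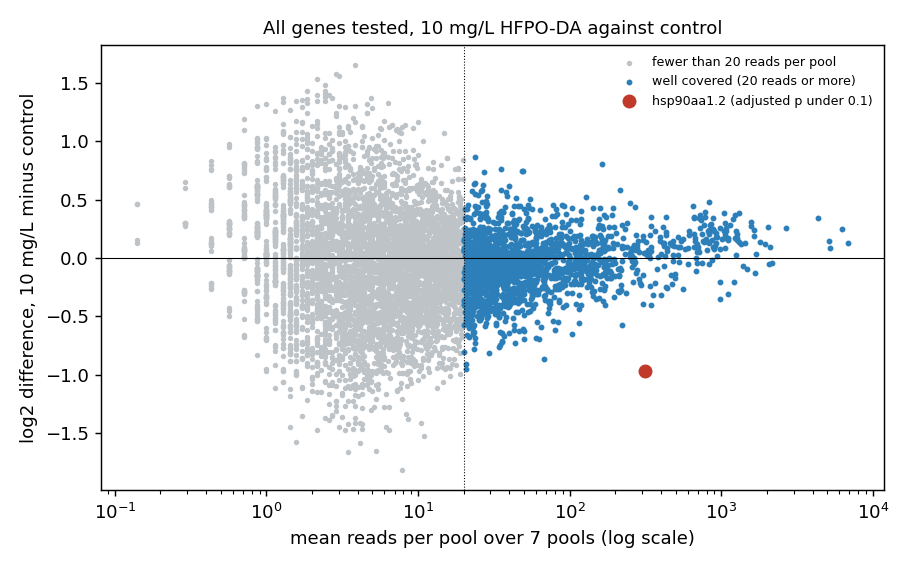
Log2 difference between 10 mg/L and control pools (y axis) against the mean number of reads per pool over the 7 pools (x axis, log scale) for the 6933 genes tested, with the 1764 well-covered genes right of the dotted line. The scatter narrows with depth, and hsp90aa1.2 lies at -0.97, below the other genes of like depth.

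HSP90 is an abundant cytosolic chaperone that folds kinases, nuclear receptors and, in zebrafish muscle, myosin. Zebrafish carry a pair of HSP90 alpha genes, hsp90aa1.1 and hsp90aa1.2, which are close in sequence, so that reads may have been split between them. The TMM-normalized value of hsp90aa1.2 was 413, 386 and 353 in control pools a, b and c, and 279, 168, 214 and 145 in 10 mg/L pools a, b, c and d. Its exposed and control pools did not overlap. The mean was 202 ± 59.1 (SD, n = 4) with exposure against 384 ± 29.8 (SD, n = 3) without, a log2 difference of -0.97 (SE 0.18) with an adjusted p of 0.0618 from limma, 0.0289 from edgeR and 0.029 from DESeq2. Over 20 alternatives, the log2 difference stayed between -1.14 and -0.83, and its adjusted p ranged from 6.43e-05 to 0.998. Without 10 mg/L pool d, the log2 difference was -0.83 (SE 0.17, adjusted p = 0.616 from limma). The call also ended without 10 mg/L pool b (adjusted p = 0.588 from limma) or c (0.153), and without control pool b (0.173) or c (0.17).

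The same gene was low in every pool lettered d. At 0.5, 1 and 2 mg/L it was 121, 104 and 97.9 in pool d and between 193 and 439 in pools a to c, and at 10 mg/L pool d was again the lowest. Across the 12 pools at the lower exposures, its log2 difference between letter d and the other letters was -1.42 (SE 0.13, adjusted p = 3.83e-14 from limma), the smallest adjusted p of that comparison. The comparison was added after the values of this gene were seen, so that its p-value here is not an independent test. Among pools a to c only, 10 mg/L had 279, 168 and 214, all below the 3 control pools. Pool b was below, and pools a and c within, the range of the lower exposures. In that set, 10 mg/L minus the mean of the lower exposures was -0.41 on the log2 scale (SE 0.13, adjusted p = 0.935 from limma), and with the pools lettered d it was -0.20 (SE 0.21, adjusted p = 0.995). Since the control group has no pool d, the letter and the exposure cannot be told apart for 10 mg/L pool d.

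**Figure D2:**
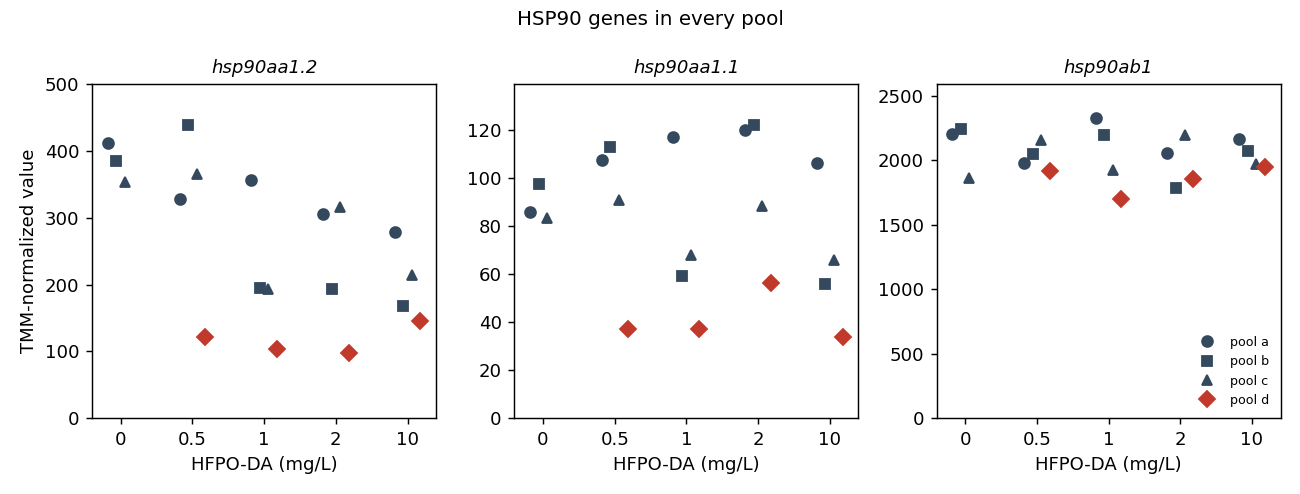
TMM-normalized values (y axis) of hsp90aa1.2, hsp90aa1.1 and hsp90ab1 in every pool by HFPO-DA concentration (x axis, mg/L), with 1 point per pool and its letter as the shape. Pools lettered d (red) are the lowest for hsp90aa1.2 (145 at 10 mg/L) and hsp90aa1.1 (33.9) at each exposure.

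The neighbouring hsp90aa1.1, which folds myosin in zebrafish muscle, had values of 85.8, 97.4 and 83.4 in control pools and 106, 55.8, 66 and 33.9 at 10 mg/L, a log2 difference of -0.55 (SE 0.24) that was -0.27 without pool d. It, too, was lower in the pools lettered d of the lower exposures (log2 difference -1.16, adjusted p = 4.37e-07 from limma). The beta isoform hsp90ab1, which is expressed throughout the embryo, had 1861 to 2239 in control pools and 1949 to 2160.0 at 10 mg/L and a log2 difference of -0.04 (SE 0.15, -0.02 without pool d). The endoplasmic reticulum member hsp90b1 (Grp94) was at 168 to 195 in control pools and 108 to 179 at 10 mg/L, with a log2 difference of -0.40 (SE 0.18), and it was lower in the pools lettered d of the lower exposures (-0.73, adjusted p = 1.64e-04 from limma). The cochaperone stip1 differed by -0.26 (SE 0.22, -0.09 without pool d). In the list of HSP90 genes and muscle myosin chaperones, 5 of the 14 members tested were higher and 9 lower, with a median log2 difference of -0.12, or -0.07 without pool d. At the lower exposures, the median log2 difference of the list between the pools lettered d and the others was -0.29. There, 4 of the 14 members were called, beside 1.14% of all genes tested. Against control, the well-covered members of the list had a median of -0.26, and 8 of these 9 were lower.

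Among other chaperones and folding enzymes, 26 of the 74 members tested were higher and 48 lower, with a median log2 difference of -0.12 and of -0.11 without pool d. The HSP70 family member hspa4a was at 61 to 76.3 in control pools and 29 to 67.4 at 10 mg/L, a log2 difference of -0.69 (SE 0.23). The endoplasmic reticulum chaperone hyou1 had 77.8 to 102 in control pools and 39.8 to 80.7 at 10 mg/L and a difference of -0.62 (SE 0.21), which was -0.64 without pool d. At the lower exposures, hspa4a was also lower in the pools lettered d (log2 difference -0.62, adjusted p = 0.0767 from limma). For cct7, a subunit of the cytosolic chaperonin that folds actin and tubulin, the values were 128, 126 and 119 in control pools and 102, 104, 94.4 and 70.1 at 10 mg/L. Its exposed pools lay below all control pools, with a log2 difference of -0.44 (SE 0.18) that was -0.31 without pool d. A protein disulfide isomerase that is also a subunit of the collagen prolyl hydroxylase, p4hb, stood on the other side, with 41.1, 36.8 and 51.1 in control pools and 58.5, 60.5, 52.4 and 62.9 at 10 mg/L and a log2 difference of 0.45 (SE 0.20). All 4 exposed pools of p4hb were above all control pools, by little in pool c.

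Opsins and the phototransduction cascade were lower in exposed pools, whereas crystallins of the lens were mostly higher. Of 8 opsin genes tested, all 8 were lower, with a median log2 difference of -0.28, and 29 of 35 phototransduction and outer segment genes were lower, with a median of -0.34 (all genes tested -0.04). All 24 well-covered members of the latter were lower, against 57.0% of all well-covered genes. Unadjusted p-values under 0.05 were found for 1 opsin gene (lower), and for 9 phototransduction genes, of which 8 were lower and 1 was higher. Over all genes tested, 2.37% were lower and 1.85% higher at that p. Without pool d, the medians were -0.19 and -0.20. With 1 pool left out at a time, they lay between -0.41 (without control pool a) and -0.19 (without control pool c) for opsins and between -0.49 (without 10 mg/L pool c) and -0.20 (without 10 mg/L pool d) for phototransduction. Both medians were below 0 under every scaling tried. At the lower exposures, phototransduction genes were also lower in the pools lettered d than in the others, with a median log2 difference of -0.31, and opsins were not (0.06). In that comparison, 4 of the 35 phototransduction genes and 1 of the 8 opsin genes were called, beside 1.14% of all genes tested. Without pool d, 1 opsin and 4 phototransduction genes were lower with an unadjusted p under 0.05, beside 165 of the 6933 genes tested.

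The visual opsins took up 0.77, 1.04 and 1.06% in control pools a, b and c and 0.68, 0.70, 0.96 and 0.66% in 10 mg/L pools a, b, c and d of the reads on genes. Control pool a and 10 mg/L pool c lay on the other group's side, so that the groups overlapped. The ultraviolet opsin opn1sw1 had values of 954, 1007 and 1102 in control pools and 745, 800.3, 1151 and 597 at 10 mg/L, a log2 difference of -0.35 (SE 0.17, -0.21 without pool d). Pool c at 10 mg/L was above all control pools and the other exposed pools were below them. The blue opsin opn1sw2 had a log2 difference of -0.34 (SE 0.18), the green opsin opn1mw1 of -0.32 (SE 0.18, -0.18 without pool d) and the red opsin opn1lw2 of -0.24 (SE 0.17), and in each the groups overlapped. Reads of opn1mw1 and opn1lw2 may be shared with their tandem copies.

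Within the cascade, zgc:73359, which RefSeq names pde6hb and which encodes an inhibitory gamma subunit of cone PDE6, had values of 108, 125 and 122 in control pools and 105, 76.6, 65 and 60.5 at 10 mg/L. Every exposed pool was below every control pool, and the log2 difference was -0.65 (SE 0.19), or -0.55 without pool d. Recoverin, a calcium sensor that restrains rhodopsin kinase, was measured as rcvrna at 28.4, 57.9 and 41.7 in control pools and 22.2, 22.7, 28.3 and 24.2 at 10 mg/L. Its groups did not overlap, though only just between control pool a and 10 mg/L pool c, with a log2 difference of -0.74 (SE 0.25) and of -0.74 without pool d. Phosducin (pdcb), which binds the transducin beta and gamma subunits, was at 43.3, 57 and 53.5 in control pools and 39, 36.9, 41.9 and 19.3 at 10 mg/L, with a log2 difference of -0.62 (SE 0.24) that was -0.37 without pool d, its lowest pool. The outer segment disc protein gene prph2a had 57.4 to 93.7 in control pools and 21.8 to 70.2 at 10 mg/L and a log2 difference of -0.86 (SE 0.27, -0.54 without pool d). The cone transducin alpha subunit gene gnat2 had 194 to 282 in control pools and 89.5 to 257 at 10 mg/L and differed by -0.57 (SE 0.22), or by -0.29 without pool d, in which it was lowest. The genes opn1mw1 and gnat2 were lower in the pools lettered d of the lower exposures as well (log2 differences -0.48 and -0.44, adjusted p = 0.0183 and 0.0596 from limma). In prph2a and gnat2, 10 mg/L pool c lay within the range of the control pools.

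In the retinoid cycle and pigment epithelium list, 10 of the 21 members tested were higher and 11 lower, and the median of -0.03 became 0.02 without pool d. The retinol transporter receptor gene stra6 differed by -0.38 (SE 0.27, -0.17 without pool d) and the retinaldehyde binding protein gene rlbp1a by -0.33 (SE 0.31). Of 9 pigment cell genes, 6 were higher and 3 lower, with a median of 0.07, or 0.16 without pool d, and pnp5a, a purine nucleoside phosphorylase gene, differed by 0.14 (SE 0.24).

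Crystallins, the soluble proteins that give the lens its refractive index, were higher in 33 of 42 genes tested and lower in 9, with a median log2 difference of 0.12. The median stayed above 0 under each scaling and was -0.01 without control pool a. The gamma M crystallin gene crygm2d8 had values of 588, 440.2 and 826 in control pools and 770.2, 676, 876 and 774 at 10 mg/L, a log2 difference of 0.37 (SE 0.17), with control pool c inside the exposed range. Its relatives crygm2d20 and crygm2d7 differed by 0.35 (SE 0.19) and 0.34 (SE 0.20), and crygm2d16 by -0.36 (SE 0.21). Crystallins took up 3.28, 3.71 and 4.63% in control pools a, b and c and 3.79, 3.39, 4.46 and 4.22% in 10 mg/L pools a, b, c and d of the reads on genes, and the groups overlapped. The gamma M genes are near-identical copies, so that the values of single members are uncertain.

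**Figure D3:**
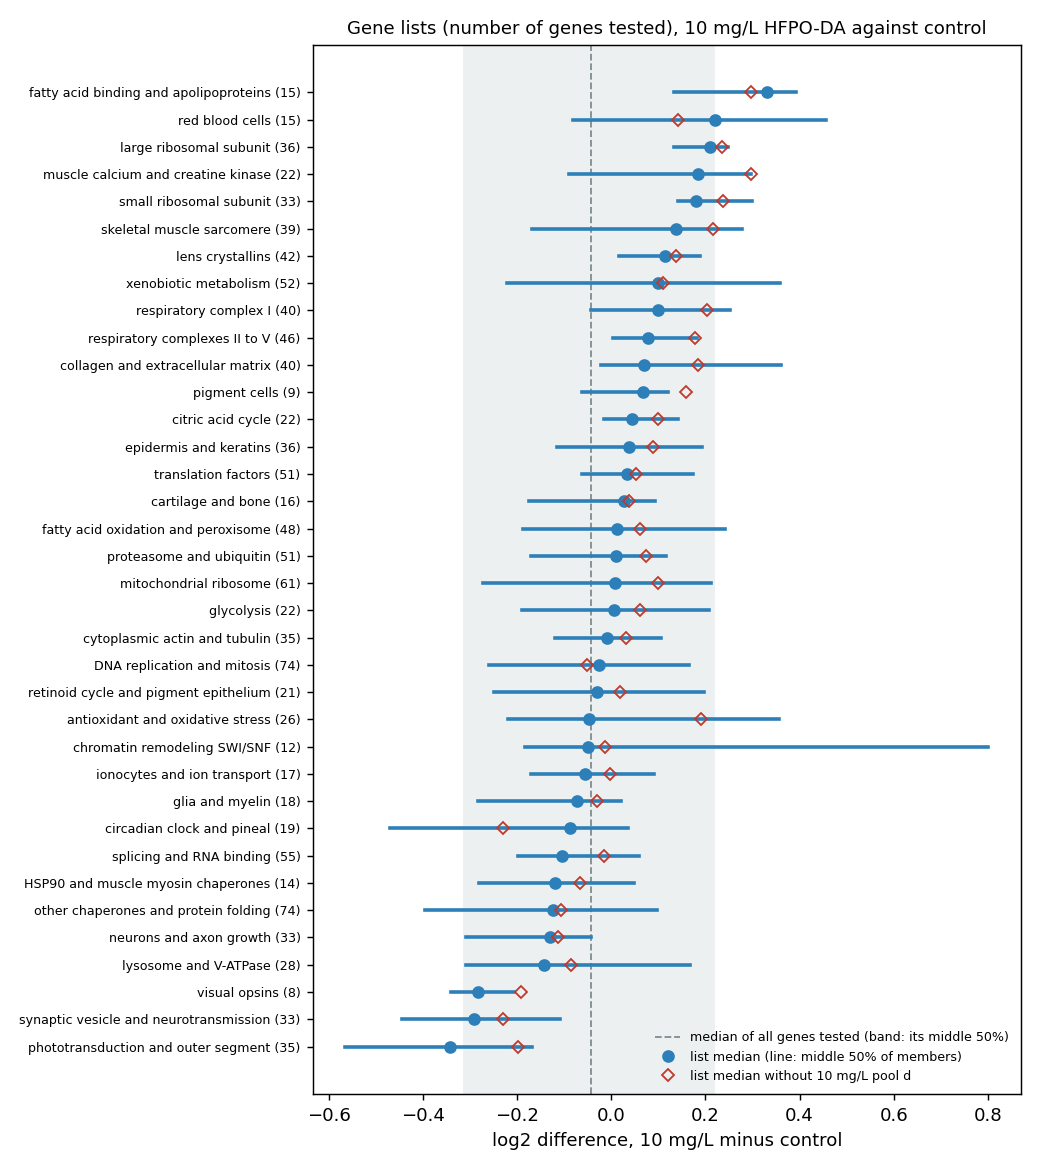
Median log2 difference between 10 mg/L and control pools (x axis) for the 36 lists with at least 5 well-covered members (y axis, number of members tested in parentheses), with the middle 50% of members as a line and the median without 10 mg/L pool d as an open diamond. Phototransduction, synaptic and opsin genes lie lowest, at -0.34, -0.29 and -0.28, and apolipoprotein, red cell and large ribosomal subunit genes lie at 0.33, 0.22 and 0.21, beside -0.04 for all genes tested.

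Neuronal genes were lower in the same pools. Of 33 genes of synaptic vesicles and neurotransmission tested, 28 were lower and 5 higher, with a median log2 difference of -0.29, or -0.23 without pool d. Of the 19 well covered, 18 were lower, beside 57.0% of all well-covered genes. In 2 of the 19, all exposed pools lay below all control pools, beside 3.34% of all well-covered genes. An unadjusted p under 0.05 was found for 5 of the 33 genes, all lower, beside 2.37% of all genes tested. Without pool d, 2 genes were lower at that p, beside 165 of the 6933 genes tested. With 1 pool left out at a time, the median lay between -0.40 (without control pool a) and -0.15 (without control pool b). These genes took up 0.66, 0.98 and 0.85% in control pools a, b and c and 0.64, 0.63, 0.72 and 0.70% in 10 mg/L pools a, b, c and d of the reads on genes. The range was narrow in the exposed pools, and control pool a lay within it.

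The glutamate decarboxylase gene gad2, which makes the inhibitory transmitter GABA, had values of 96.4, 159 and 136 in control pools and 88.6, 77.6, 117 and 70.1 at 10 mg/L, a log2 difference of -0.56 (SE 0.20). The vesicular acetylcholine transporter gene slc18a3a, a cholinergic marker, had 17.7 to 33 in control pools and 9.67 to 17.7 at 10 mg/L and a difference of -0.81 (SE 0.31). It rested on 20, 12, 14 and 4 reads in 10 mg/L pools a, b, c and d. The fusion factor gene nsfa, whose ATPase takes SNARE complexes apart, was at 104, 136 and 143 in control pools and 99.3, 103, 98.5 and 82.2 at 10 mg/L, with all exposed pools below all control pools and a log2 difference of -0.41 (SE 0.18). For syt5b, a synaptotagmin gene, the values were 84.4 to 145 in control pools and 77.1 to 112 at 10 mg/L. Its log2 difference was -0.40 (SE 0.20). Outside the list, cacng2a, which encodes an AMPA receptor auxiliary subunit (stargazin), was at 24.1, 27.6 and 33.8 in control pools and 18.6, 13.2, 14.7 and 19.3 at 10 mg/L, without overlap and with a log2 difference of -0.78 (SE 0.27), or -0.86 without pool d.

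Among genes of neurons and axon growth, 26 of 33 were lower and 7 higher, with a median of -0.13 and of -0.11 without pool d. Without control pool b, the median was -0.06, beside -0.05 for all genes tested. Control pool a, with 1.57% of the reads on genes, lay within the exposed range of 1.46 to 1.77%. The collapsin response mediator gene dpysl5b, which acts in axon guidance, had 36.2, 58.8 and 60.5 in control pools and 29.2, 28.4, 41.9 and 24.2 at 10 mg/L and a log2 difference of -0.73 (SE 0.24). Its exposed pool c was within the control range. For lhfpl3, stmn1b and rtn1a, the log2 differences were -0.67 (SE 0.27), -0.39 (SE 0.16) and -0.63 (SE 0.28). The glial list had 6 higher and 12 lower members and a median of -0.07, or -0.03 without pool d. Its gap junction gene cx43 (gja1b in RefSeq) and its prostaglandin D synthase gene ptgdsb.1 differed by -0.37 (SE 0.22) and -0.36 (SE 0.25), and by -0.13 and -0.01 without pool d.

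**Figure D4:**
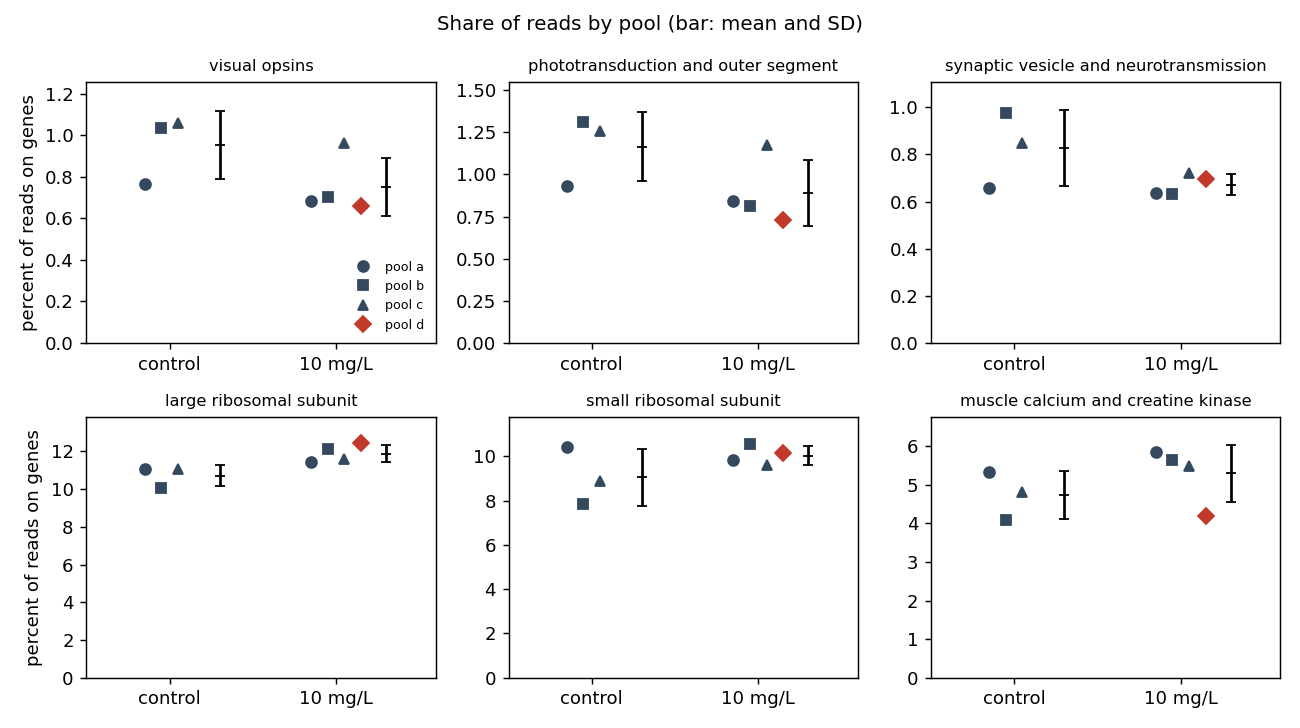
Percent of the reads on genes (y axis) taken up by 6 gene lists in each control and 10 mg/L pool (1 point per pool, shape by letter), with mean and SD beside the points. In each of the 6 lists except the large ribosomal subunit, at least 1 control pool lies within the exposed range, and 10 mg/L pool c is the exposed pool nearest to control for opsins (0.96%).

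Cytosolic ribosomal protein genes were higher. Of 36 large-subunit genes tested, all 36 were higher, with a median log2 difference of 0.21, and of 33 small-subunit genes 32 were higher and 1 lower, with a median of 0.18. The exposed pools lay above all control pools in 4 of 35 and 5 of 33 well-covered members, beside 1.81% of all well-covered genes. Unadjusted p-values under 0.05 were found for 3 large-subunit and 5 small-subunit genes, all higher, beside 1.85% of all genes tested. Without pool d, they were found for 1 and 4, beside 158 higher among the 6933 genes tested. Large-subunit genes took up 11.04, 10.06 and 11.04% in control pools a, b and c and 11.42, 12.11, 11.58 and 12.44% in 10 mg/L pools a, b, c and d of the reads on genes, so that every exposed pool was above every control pool. Small-subunit genes took up 10.42, 7.86 and 8.91% in control pools a, b and c and 9.84, 10.57, 9.61 and 10.15% in 10 mg/L pools a, b, c and d, and control pool a lay within the exposed range.

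Control pool b was low in these genes. Without it, the medians were 0.10 and 0.07, and without pool d they were 0.23 and 0.24. Quantile normalization lowered them to 0.06 and 0.09. The gene faua, whose product is a ubiquitin-like protein fused to ribosomal protein S30, had values of 1295, 903 and 1079.7 in control pools and 1394, 1428, 1388 and 1444 at 10 mg/L. Its groups did not overlap, and the log2 difference was 0.39 (SE 0.15), or 0.38 without pool d. Values of rps27.1 were 874, 401 and 756 in control pools and 849, 899, 910.0 and 919 at 10 mg/L, with a log2 difference of 0.48 (SE 0.19), and only control pool b was far from the exposed pools. The log2 differences were 0.44 (SE 0.18) for rpl35a, 0.37 (SE 0.17) for rpl23, 0.35 (SE 0.17) for rpl30 and 0.34 (SE 0.18) for rpl11. For gnb2l1, the ribosomal scaffold RACK1, and for rps13 they were 0.39 (SE 0.16) and 0.40 (SE 0.17). Reads of ribosomal protein genes may be shared with near-identical copies, so that single members are uncertain.

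A pair of genes for making ribosomes was among the 32 well-covered genes (1.81%) whose exposed pools all lay above control. Such genes were not taken as a list, so that no share of them is given. The ribosome biogenesis regulator rrs1, needed for the large subunit, was at 17, 18.4 and 12.6 in control pools and 31.9, 27.4, 31.5 and 26.6 at 10 mg/L, a log2 difference of 0.87 (SE 0.26). It was 0.91 without pool d. The nucleolar GTPase gene gtpbp4 was at 56, 48.7 and 52.7 in control pools and 62.9, 71, 71.3 and 75 at 10 mg/L, with a log2 difference of 0.41 (SE 0.19). Translation factors as a list were near all genes, with 31 higher, 20 lower and a median of 0.03, or 0.05 without pool d. Its members eif1axb and eef1b2 differed by -0.39 (SE 0.19) and 0.28 (SE 0.16). The mitochondrial ribosome had 31 higher and 30 lower members, with mrpl37 at 0.63 (SE 0.26) and mrps35 at -0.73 (SE 0.38, -0.23 without pool d, which held 2 reads of it), and a median of 0.01, or 0.10 without pool d. Both medians turned below 0 when every pool was rescaled to the same sum (-0.02 and -0.04).

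**Figure D5:**
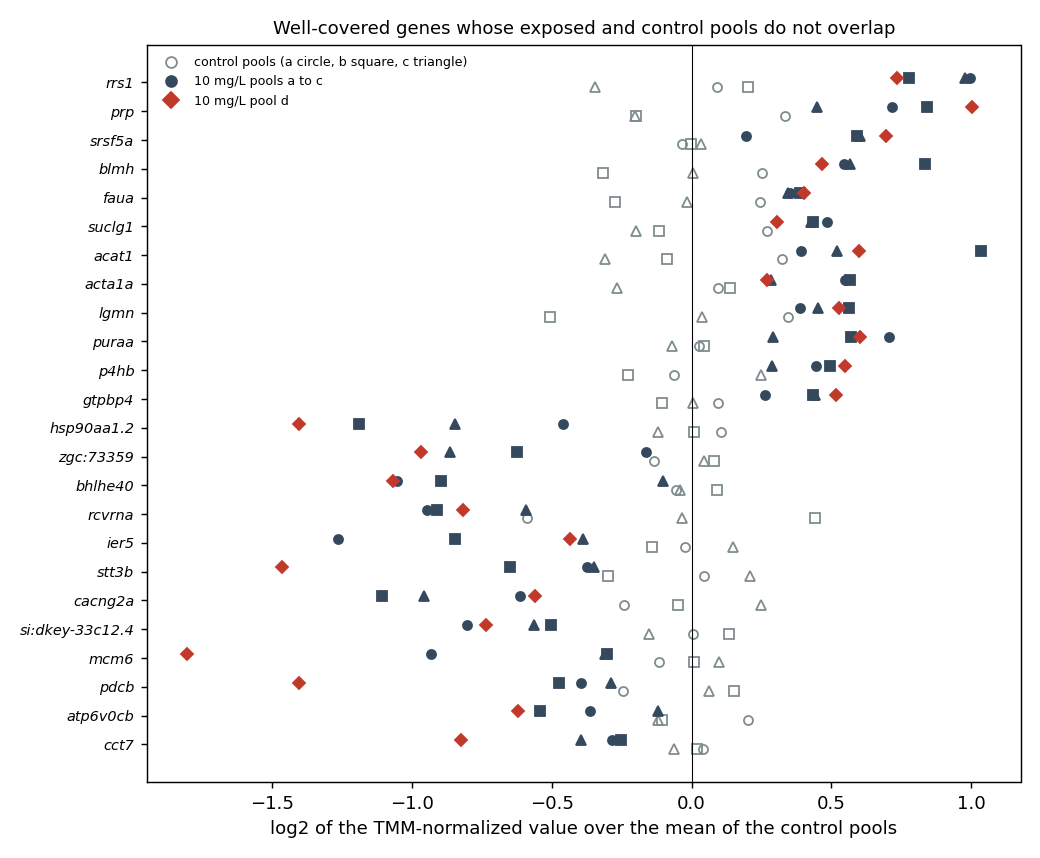
Log2 of the TMM-normalized value over the mean of the control pools (x axis) for the 12 higher and the 12 lower well-covered genes (y axis) with the smallest unadjusted p among those without overlap, with 1 point per pool and pool d in red. Only hsp90aa1.2 passed the test, and pool d is the exposed pool farthest from control in stt3b, mcm6, pdcb and cct7, among others.

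Genes of energy metabolism were compared next. The alpha subunit of succinyl-CoA ligase (suclg1), which makes GTP or ATP in the citric acid cycle, had values of 139, 107 and 100.7 in control pools and 161, 156, 155 and 143 at 10 mg/L, with no overlap and a log2 difference of 0.43 (SE 0.17). Its partner subunit sucla2 was at 28.5 to 31.9 in control pools and 38.1 to 43.5 at 10 mg/L and also had all exposed pools above control, with a difference of 0.43 (SE 0.21). The citric acid cycle list had 15 higher and 7 lower members and a median of 0.04, which was 0.10 without pool d and -0.01 after rescaling to equal sums. For respiratory complex I, 26 of the 40 members tested were higher and 14 lower, with a median of 0.10, and for complexes II to V, 34 of the 46 members tested were higher and 12 lower, with a median of 0.08. Without pool d these medians were 0.20 and 0.18, and without control pool b they were -0.03 and -0.06. The complex I genes ndufa13 and ndufv2 differed by 0.59 (SE 0.30) and 0.45 (SE 0.25). The ATP synthase gene atp5f1 (atp5pb in RefSeq) and the cytochrome oxidase gene cox5ab differed by 0.35 (SE 0.16) and 0.42 (SE 0.24). Glycolysis was split evenly, 11 higher and 11 lower (median 0.01, 0.06 without pool d), with the muscle enolase gene eno3 at 0.47 (SE 0.21) and the aldolase C gene aldocb at -0.29 (SE 0.16, -0.19 without pool d).

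Genes of fatty acid oxidation and of lipid transport were looked at as separate lists. No list of PPAR alpha targets was drawn up, and a role of PPAR alpha was not tested. Fatty acid oxidation and peroxisome genes had 25 higher and 23 lower members and a median of 0.01, which was 0.06 without pool d and -0.04 after rescaling to equal sums. Only 9 of the 48 members tested were well covered, 4 of them higher and 5 lower. At an unadjusted p under 0.05, 1 member was higher and 0 lower, beside 1.85% and 2.37% of all genes tested. Without pool d, 3 were higher and 0 lower at that p, beside 158 and 165 of the 6933 genes tested. The PPAR target angptl4, an inhibitor of lipoprotein lipase, was at 19.1 to 39.5 in control pools and 14.5 to 23 at 10 mg/L, a log2 difference of -0.50 (SE 0.28), and the trifunctional protein subunit gene hadhb differed by 0.25 (SE 0.21). The mitochondrial acetoacetyl-CoA thiolase gene acat1, which works in ketone body and isoleucine breakdown, was at 22, 16.5 and 14.2 in control pools and 23, 35.9, 25.2 and 26.6 at 10 mg/L. Its groups did not overlap, by a small margin between control pool a and 10 mg/L pool a, and the log2 difference was 0.65 (SE 0.27). Fatty acid binding protein and apolipoprotein genes were higher in 13 of 15, with a median of 0.33. Apolipoproteins apoa2, apoa1b, apoa4b.1 and apoa1a, which carry yolk and liver lipid in the embryo, differed by 0.44 (SE 0.29), 0.37 (SE 0.24), 0.33 (SE 0.27) and 0.35 (SE 0.28). The control pools were far apart, and apoa1a was at 301, 72.6 and 98.3 in control pools and 185, 189, 114 and 184 at 10 mg/L. With 1 pool left out, the median of the list lay between 0.04 (without control pool b) and 0.69 (without control pool a), and apoa1a passed the test without control pool a (adjusted p = 0.0727 from limma) and had a log2 difference of -0.06 without control pool b. At 10 mg/L the apolipoprotein genes apoa1b and apoa2 of pool d lay within the range of the other pools, whereas both were higher in letter d at the lower exposures (log2 differences 0.69 and 0.71, adjusted p = 0.0148 and 0.0166 from limma).

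Among genes of detoxification, 36 of 52 xenobiotic metabolism genes were higher and 16 lower, with a median of 0.10, but only 5 were well covered, and the median was -0.01 with replaced zeros set to 0. The glutathione transferase gene gstp1 differed by 0.27 (SE 0.19). Antioxidant genes had 12 higher and 14 lower members, with a median of -0.05 that was 0.19 without pool d. The cytosolic superoxide dismutase gene sod1 was at 65.9, 30.3 and 34.6 in control pools and 55.8, 68.1, 55.6 and 55.6 at 10 mg/L, a log2 difference of 0.51 (SE 0.23), and control pool a lay within the exposed range. The mitochondrial enzyme gene sod2 differed by -0.41 (SE 0.26, -0.14 without pool d) and the glutathione peroxidase gene gpx4a by 0.56 (SE 0.31).

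The 10 genes with the highest mean values were mylpfa, actc1b, krt4, pvalb2, mylz3, acta1b, hsp90ab1, eef1a1l1, tmsb4x and tpma, and their log2 differences lay between -0.05 for tmsb4x and 0.34 for mylz3. Without pool d, these lay between -0.02 for hsp90ab1 and 0.44 for actc1b, with actc1b at 0.44, tpma at 0.42, pvalb2 at 0.30 and mylpfa at 0.21. In the sarcomere list, 26 of the 39 members tested were higher and 13 lower, with a median of 0.14. At an unadjusted p under 0.05, 5 members were higher and 0 lower, beside 1.85% and 2.37% of all genes tested. Without pool d, the median was 0.22, and 10 members were higher at that p, beside 158 of all genes tested. Without control pool b, the median was 0.07. Sarcomere genes took up 8.30% of the reads on genes in control pool a, within the exposed range of 7.14 to 8.67%. Genes of muscle calcium handling and creatine kinase had 13 higher and 9 lower members and a median of 0.18. It was 0.30 without pool d and 0.07 without control pool b. These genes are described next by their share of reads. They took up 5.33, 4.09 and 4.80% in control pools a, b and c and 5.86, 5.65, 5.48 and 4.20% in 10 mg/L pools a, b, c and d of the reads on genes, with pool d the lowest exposed pool and within the control range. The median was 0.04 after quantile normalization, under which mylpfa, pvalb2 and acta1b turned to -0.03, -0.07 and -0.21.

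The skeletal alpha-actin gene acta1a had values of 90.05, 92.8 and 70.0 in control pools and 123.2, 125, 103 and 102 at 10 mg/L. All exposed pools were above all control pools, and the log2 difference was 0.43 (SE 0.18). The slow-type troponin I gene tnni1c had 26.9, 42.3 and 24.4 in control pools and 115, 46.4, 26.2 and 48.4 at 10 mg/L, with pool a highest and a log2 difference of 0.74 (SE 0.31). The Z-disc gene ldb3a differed by 0.43 (SE 0.22) and tnni2a.2 by -0.64 (SE 0.34, -0.29 without pool d). Muscle creatine kinase (ckma) was at 1697, 961 and 1280.2 in control pools and 1822, 1689.6, 1522 and 1330.3 at 10 mg/L, a log2 difference of 0.31 (SE 0.17). The phosphorylase gene pygmb and the parvalbumin gene pvalb4 differed by 0.42 (SE 0.21, 0.22 without pool d) and 0.27 (SE 0.19, 0.42 without pool d).

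Exposed and control pools overlapped in each of the 3 globin genes described here, and 0 of them passed the test. The alpha globin gene hbae3 was at 229.7, 129.6 and 137 in control pools and 278, 254, 169 and 276 at 10 mg/L, a log2 difference of 0.58 (SE 0.20) that was 0.51 without pool d, and 10 mg/L pool c lay within the control range. It was also higher in the pools lettered d of the lower exposures (0.49, adjusted p = 0.0685 from limma). The beta globin genes hbbe2 and hbbe1.1 differed by 0.73 (SE 0.29) and 0.75 (SE 0.41). Values of hbbe1.1 were 108, 13.8 and 13.4 in control pools and 34.6, 41.6, 52.4 and 60.5 at 10 mg/L, with control pool a above every exposed pool. It passed the test when that pool was left out (adjusted p = 0.00173 from limma), and its log2 difference was -0.03 in edgeR. The red cell list had 9 higher and 6 lower members and a median of 0.22, which was 0.14 without pool d and 0.01 without control pool b. The median was 0.07 in edgeR and 0.10 in DESeq2, and the well-covered members were split, 3 higher and 3 lower. At the lower exposures, the median log2 difference of this list between the pools lettered d and the others was 0.37. Heart, vessel and leukocyte genes were too shallow to follow: 2 of 18, 0 of 12 and 2 of 30 genes tested were well covered.

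In the skin, 21 of the 36 members tested were higher and 15 lower, with a median of 0.04, or 0.09 without pool d. The keratin genes krt17 and krt8 differed by 0.43 (SE 0.18) and 0.34 (SE 0.19), and the galectin gene lgals1l1 and the annexin gene anxa1b by -0.62 (SE 0.24) and -0.52 (SE 0.23). The sodium pump subunit gene atp1b2a was at 56.7 to 111 in control pools and 41.1 to 82.8 at 10 mg/L, a log2 difference of -0.54 (SE 0.23). Of 40 collagen and matrix genes, 29 were higher and 11 lower, with a median of 0.07 (0.19 without pool d) and with the cartilage collagen gene col9a1b at 0.37 (SE 0.18) and the proteoglycan gene fmoda at 0.44 (SE 0.24). The gene listed as prp, a name that RefSeq gives as an older one of both col22a1 and prnprs3, was at 31.9, 22.1 and 22 in control pools and 41.7, 45.4, 34.6 and 50.8 at 10 mg/L. Its exposed pools were all above control, with a log2 difference of 0.76 (SE 0.23), or 0.68 without pool d. The medians of the skin and of the cartilage and bone lists changed sign with the scaling, as did those of glycolysis and of proteasome, antioxidant and retinoid cycle genes, and that of actin and tubulin genes changed sign in edgeR and DESeq2, so that no direction is given for them. Cytoplasmic actin and tubulin genes were split, 17 higher and 18 lower, and tuba1b, tuba8l2 and arpc5a differed by 0.44 (SE 0.22), 0.33 (SE 0.18) and -0.51 (SE 0.28).

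Genes of protein turnover lay on both sides. Of 28 lysosome and V-ATPase genes, 18 were lower and 10 higher, with a median of -0.14, or -0.09 without pool d. The proton channel subunit gene atp6v0cb had values of 419, 339 and 336 in control pools and 284, 251, 335 and 237 at 10 mg/L. Its exposed pools were below all control pools, in pool c by little, and the log2 difference was -0.40 (SE 0.16). Another V-ATPase subunit gene, atp6v1d, differed by -0.64 (SE 0.25). The lysosomal protease legumain (lgmn) was higher, at 44.7, 24.8 and 36.2 in control pools and 46.1, 52, 48.2 and 50.8 at 10 mg/L, with no overlap and a log2 difference of 0.52 (SE 0.22). The cytosolic protease bleomycin hydrolase (blmh) was at 35.5, 23.9 and 29.9 in control pools and 43.4, 53, 44 and 41.1 at 10 mg/L, also without overlap, at 0.61 (SE 0.22). Proteasome and ubiquitin genes had 26 higher and 25 lower members (median 0.01, 0.07 without pool d), with the subunit genes psma1 and psmc2 at 0.38 (SE 0.18) and 0.47 (SE 0.24). The oligosaccharyltransferase gene stt3b, which adds sugars to new proteins, was at 68.8, 54.2 and 77.1 in control pools and 51.4, 42.6, 52.4 and 24.2 at 10 mg/L. The log2 difference of -0.69 (SE 0.24) was -0.44 without pool d, the lowest pool.

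Nuclear and regulatory genes completed the set without overlap. The splicing factor gene srsf5a was at 100.7, 103 and 105 in control pools and 118, 155, 156 and 167 at 10 mg/L, a log2 difference of 0.52 (SE 0.17), while 37 of 55 splicing and RNA-binding genes were lower, with a median of -0.10 that was -0.02 without pool d. In that list, hnrnpul1 and snrpb differed by -0.64 (SE 0.24) and 0.45 (SE 0.21). The single-strand DNA and RNA binding protein gene puraa was at 22.7, 23 and 21.2 in control pools and 36.3, 33.1, 27.3 and 33.9 at 10 mg/L, with a log2 difference of 0.53 (SE 0.24). The clock-linked repressor gene bhlhe40 was at 39, 43.2 and 39.3 in control pools and 19.5, 21.8, 37.7 and 19.3 at 10 mg/L. Pool c was the exposed pool nearest to control, and the log2 difference was -0.76 (SE 0.25). The immediate early gene ier5 was at 41.8, 38.6 and 47.2 in control pools and 17.7, 23.7, 32.5 and 31.4 at 10 mg/L, a log2 difference of -0.72 (SE 0.24) and of -0.81 without pool d.

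The replicative helicase gene mcm6 had values of 31.2, 34 and 36.2 in control pools and 17.7, 27.4, 27.3 and 9.67 at 10 mg/L. Its log2 difference of -0.81 (SE 0.30) was -0.50 without pool d, where it rested on 4 reads. DNA replication and mitosis genes as a list had 32 higher and 42 lower members, a median of -0.03 (-0.05 without pool d), and the cohesin gene smc3 at -0.32 (SE 0.19). The chromatin remodeling gene smarcd1 was at 38.6 to 89.3 in control pools and 29 to 39 at 10 mg/L, with a log2 difference of -0.69 (SE 0.25), in a list with 5 higher and 7 lower members (median -0.05, -0.01 without pool d). The gene listed as si:dkey-33c12.4 was at 40.4, 44.1 and 36.2 in control pools and 23, 28.4, 27.3 and 24.2 at 10 mg/L, without overlap and with a log2 difference of -0.64 (SE 0.23).

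Set against the mean of the 3 lower exposures, which uses no control pool, 10 mg/L had 0 genes called by limma (295 with an unadjusted p under 0.05, 4.26%) and 3 called by edgeR (0.0433%), all higher. These were gamt, which makes creatine, anp32e, a histone chaperone, and selm (selenom in RefSeq), a selenoprotein of the endoplasmic reticulum. The value of gamt was 121, 107, 527 and 96.7 in 10 mg/L pools a, b, c and d, between 79.5 and 174 at the lower exposures and between 77.2 and 107 in control pools. Its log2 difference from the lower exposures was 0.97 in edgeR (adjusted p = 0.00195) and 0.54 in limma (adjusted p = 0.995), and pool c stood alone. In anp32e, 10 mg/L pools a, b, c and d had 135, 352, 189.8 and 184, and the lower exposures 101.7 to 179.6. Pool b was far the highest, and pools b, c and d lay above all pools of the lower exposures and all control pools. Pool a lay within both ranges. The log2 difference from the lower exposures was 0.62 in edgeR (adjusted p = 0.0275) and 0.53 in limma (adjusted p = 0.915). In selm, the 10 mg/L pools had 60.3, 79.5, 33.5 and 46, the lower exposures 23.7 to 44.1 and the control pools 37.6, 46.9 and 33. Pools c and d at 10 mg/L lay within the control range. The log2 difference of selm from the lower exposures was 0.78 in edgeR (adjusted p = 0.0275) and 0.69 in limma (adjusted p = 0.915). Against control, the log2 differences of gamt, anp32e and selm were 0.81 (SE 0.33), 0.42 (SE 0.21) and 0.42 (SE 0.24).

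In this contrast the opsin, phototransduction and synaptic medians were above that of all genes, and against control they were below it. The median log2 difference between 10 mg/L and the lower exposures was 0.09 for phototransduction, 0.17 for opsins, 0.10 for synaptic genes, 0.05 and 0.05 for the large and small ribosomal subunits and 0.03 for apolipoproteins, beside 0.01 for all genes tested. Muscle calcium genes were at -0.01 and red cell genes at 0.03.

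Below the line of 20 reads, the values carry little about single genes. The median gene tested had 7.71 reads per pool, 987 genes had 3 or fewer reads in every control pool, and 1290 had 0 reads in 10 mg/L pool d against 238 in control pool a. A replaced zero is worth 0.5 reads and so more in a shallow pool: of the 164 genes tested whose exposed pools all lay above control (2.37%), 34 had 0 reads in at least 1 exposed pool, 28 of them in pool d. In the other direction, 236 genes (3.4%) lay below control in every exposed pool, and 0 of these had 0 reads in a control pool. The scaling fixes this 0. A read was worth 2.42 in 10 mg/L pool d and 0.71 to 0.92 in control pools, so that a replaced zero of a control pool lies below every value of pool d. Of the genes named, acta1a, apoa4b.1 and eef1a1l1 were also higher, and atp5f1, faua, krt17, mylpfa and tuba8l2 lower, in the pools lettered d than in the other pools of the lower exposures (limma, adjusted p under 0.1), with log2 differences of 0.39 to 0.74 and of -0.54 to -0.27.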

How the data were processed

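RNA of 19 pools of 72 hpf embryos was analysed (1 of the 20 pools of the study was not). Per the labels and methods, the authors demultiplexed the reads with BBTools, handled molecular identifiers with UMI-tools 1.1.2, trimmed with Trimmomatic 0.40, removed rRNA, aligned to GRCz10 with STAR, kept 1 read per identifier and counted genes with HTSeq 0.13.5. The deposited values are a normalized signal: the authors scaled read counts by TMM and replaced zeros by 0.5 reads. Dividing by the value of 1 read gave whole reads for every value (tolerance 0.0001). All value columns belong to an analysed pool (0 others).

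Genes with a mean over the 19 pools above the study's stated CPM minimum were tested on log2(value + 0.5) with limma 3.58.1 (trend, R 4.3.3, 2-sided, Benjamini-Hochberg) over the 7 pools and called at an adjusted p under 0.1. The log2 scale understates changes of low genes. Alternatives were edgeR 4.0.16 and DESeq2 1.42.0 on recovered reads, other pseudocounts, filters and scalings, a fit over 19 pools, a block for the letter, and leaving out each pool. NOISeq, the study's test, was not run. The fits were tested on simulated data. Pool letters are the submitters' labels, and deviations of same-lettered pools correlated at 0.076, -0.157 and 0.215 for a, b and c, so they were not taken as pairs.

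The lists and named genes were chosen with earlier results of these data known. Named genes are those called by any tool in either comparison, the 12 higher and 12 lower well-covered genes without overlap with the smallest p, up to 4 well-covered genes with the smallest p per list, and the 10 most abundant. Comparisons with the pools lettered d were added after the values of hsp90aa1.2 were seen. The genes apoa1a and hbbe1.1, taken up from their lists, were also called when a pool was left out.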

Additional observations from a re-analysis of the deposited data

Results flagged for a closer look

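In 13 of the 124 genes named and in 4 of the 36 lists with at least 5 well-covered members, 1 of the 4 exposed pools lay far from the others, with a gap to its nearest neighbour above Dixon's 95% critical value when divided by the range of the 4 pools. Chance does this in about 1 of 20 groups. Pool c was the high pool in gamt (ratio 0.943), bhlhe40 (0.869), the blue opsin gene opn1sw2 (0.956), the crystallin genes crygm2d20 (0.84) and crygm2d16 (0.858), and the share of reads of the visual opsins (0.862), and the low pool in apoa1a (0.928) and the share of reads of cartilage and bone genes (0.847). Pool d, the shallowest, was the low pool in the muscle genes actc1b (0.895) and pvalb2 (0.838), in tmsb4x (0.894), which encodes an actin-binding thymosin, in the mitochondrial genes cox5ab (0.859) and sod2 (0.843), and in the share of reads of the mitochondrial ribosome (0.852), and the high pool in that of splicing genes (0.853). Pool b was the high pool in eef1b2 (0.835) and sod1 (0.978). In actc1b, pool d was at 4150.5 and the other exposed pools between 6853 and 7169.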

How the results depend on the processing

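Against control, 0 genes were called with a fit over all 19 pools, without the trend, with a mean above 10 CPM or of at least 20 reads, with replaced zeros set to 0, or at an adjusted p under 0.05, 2 with no filter on the mean (gamt and hsp90aa1.2), and 0 to 3 with 1 pool left out. With the letter as a replicate block, hsp90aa1.2 was the only call (log2 difference -0.83, adjusted p = 0.0856 from limma). Pool d is alone in its letter there and adds nothing. Against the lower exposures, edgeR called 3 genes, and limma with 1 pool left out called 0 to 2 (anp32e and ube3a without 10 mg/L pool a, ube3a without pool b), of which ube3a was named after its result was seen. Of the medians of the lists and of all genes tested under the alternatives, 712 moved by less than the spread between pools and 28 by more. A move within that spread can still change the sign: the antioxidant median, -0.05 with all pools and 0.19 without pool d, is among the 712. The median log2 difference of all genes was 0.068 with no filter, -0.095 with zeros set to 0 and -0.093 rescaled to equal sums, a scaling under which 103 genes were higher and 252 lower at an unadjusted p under 0.05 (128 and 164 as deposited). With at least 20 reads, the retinoid cycle, glia and HSP90 medians were -0.19, -0.23 and -0.26. With zeros set to 0, glia, xenobiotic and red cell medians were -0.18, -0.0075 and -0.010, and the xenobiotic median was 0.28 with no filter. Quantile normalization gave 0.06 for the large ribosomal subunit, and DESeq2 gave 0.089 for the proteasome. Splicing genes were at -0.007 (DESeq2), -0.029 (edgeR), -0.043 (no filter), -0.053 (quantile), -0.016 (replicate block) and -0.16 (rescaled). With 1 pool left out, medians ranged from -0.24 to -0.031 for glia, 0.051 to 0.23 for xenobiotic, -0.068 to 0.22 for antioxidant, -0.19 to -0.041 for lysosome, 0.0099 to 0.26 for red cell, -0.13 to -0.016 for splicing and -0.12 to -0.0034 for DNA replication genes. The log2 difference changed sign in 8 of the 124 genes named. It was -0.032 for mylpfa, -0.066 for pvalb2 and -0.21 for acta1b after quantile normalization, -0.034 for hbbe1.1 in edgeR and 0.0083 for tmsb4x with the replicate block. With 1 pool left out, it ranged from -0.019 to 0.30 for pvalb2, from -0.13 to 0.0077 for hsp90ab1, from -0.088 to 0.011 for tmsb4x, from -0.064 to 0.96 for apoa1a and from -0.29 to 0.020 for crx. The cause was not tested for any of these. Depth limits the comparison most in 10 mg/L pool d and in genes under 20 reads per pool.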

Other observations

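Further genes of the retina, ionocytes and endocrine system were measured, none of which passed the test (limma, adjusted p of at least 0.967). The retinal transcription factor genes neurod1, pax6a and crx had log2 differences of -0.18 (SE 0.20), -0.22 (SE 0.24) and -0.11 (SE 0.19, -0.01 without pool d), and 10 of the 15 genes of their list were lower. Values of crx, which acts in photoreceptor development, were 88.6, 136 and 123.5 in control pools and 113, 91.8, 139 and 87.1 at 10 mg/L, so that its groups overlapped widely. The sodium pump alpha subunit gene atp1a1a.1 was at 291, 292 and 234 in control pools and between 244 and 254 in all exposed pools, a log2 difference of -0.13 (SE 0.15). The glucocorticoid receptor gene nr3c1 was at 28.4, 34 and 31.5 in control pools and 23.9, 24.6, 30.4 and 16.9 at 10 mg/L, with a log2 difference of -0.40 (SE 0.25) that was -0.25 without pool d.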
